A study of Rattus norvegicus with 12 samples.

Results

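The comparison described here set ECs of the ductus arteriosus (DA) against ECs of the aorta in rat neonates 30 minutes after birth (N group). It rested on 6 of the 12 arrays of the series, 3 of the DA and 3 of the aorta, and the other 6 came from the same vessels of term fetuses before breathing (F group). All animals were untreated Wistar rats at full term, delivered by cesarean section. Tissue pooled from several litters was digested with collagenase-dispase and sorted for CD31+ CD45- cells, and their RNA was amplified before it was hybridized to Rat Gene 1.0 ST arrays, which carry many short probes along each transcript. A replicate was therefore a pool of sorted cells and not an animal, and p-values cover the variation from pool to pool. Nothing in the labels ties the DA pool to the aortic pool of the same number. By the litters the paper reports for each DA sample, the DA samples alone would use up its approximate total. DA and aortic pools of a stage may therefore share litters, which the paper does not state. Every probe set was taken whose mean log2 signal over the 12 arrays was at or above that of lys, a spiked control RNA. Of the 15307 probe sets that carried 1 gene symbol, 11899 passed and 3408 did not, and the 11899 stood for 11221 genes, each represented by its brightest probe set. Just outside the limit of 4.44 lay Csmd1, Taar7b and Dab1 at means of 4.44, and just inside it lay Zic4, Spmip3 and Krt18, also at 4.44.

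The DA is the fetal shunt between the pulmonary artery and the aorta. It arises from an embryonic aortic arch artery, whereas the descending aorta arises from the dorsal aorta, and Hox, T-box and GATA transcription factors mark such positions along the embryo. After birth the DA constricts as oxygen rises and prostaglandin E2 falls, and its lumen is then remodelled by a thickened intima, while the aorta keeps carrying blood. ECs line both vessels, sense blood flow, release nitric oxide, prostaglandins and endothelin, and control clotting and the entry of leukocytes.

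The sorted cells carried the markers of endothelium in both vessels. Pecam1, which encodes the sorting antigen CD31, had log2 signals of 12.16, 12.12 and 11.90 on DA replicates 1 to 3 and 12.25, 12.22 and 12.04 on aortic replicates 1 to 3. Cdh5, the cadherin of endothelial junctions, had 10.94, 11.09 and 11.12 and 11.11, 11.11 and 11.19, in the same order. Both genes were bright on all 6 arrays, and the vessels overlapped. Ptprc, which encodes CD45, lay at 2.82 to 4.10 on the 6 arrays and did not reach the limit set by lys. Of 23 endothelial markers measured, 0 were called higher in the DA, 3 were called lower and 20 did not pass the test (0 and 5 with the replicate number as a block), where a gene was called at an adjusted p under 0.05 in limma after Benjamini-Hochberg adjustment over all 18690 probe sets tested. The corresponding shares of all 11221 genes were 1.6% called higher and 2.01% called lower in the DA (3.55% and 4.61% with the block). The 3 markers were Cldn5, a claudin of tight junctions, at a log2 difference, DA minus aorta, of -0.69, Sox17, an arterial transcription factor, at -0.51, and Flt1, a VEGF receptor, at -0.50. The call of Cldn5 was lost on leaving out any 1 of DA N arrays 2 and 3 and aorta N arrays 1 and 2 (adjusted p = 0.0719 to 0.0996), that of Sox17 on leaving out any 1 of DA F array 2, DA N arrays 1, 2 and 3, aorta F array 2 and aorta N arrays 1, 2 and 3 (adjusted p = 0.0544 to 0.138), and that of Flt1 on leaving out any 1 of DA F array 2, DA N arrays 1, 2 and 3, aorta F arrays 2 and 3 and aorta N arrays 2 and 3 (adjusted p = 0.0519 to 0.158).

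Lists of markers of other cell types did not all stand at the same level in both vessels. The log2 of the summed signal of the 23 endothelial markers was 15.15 to 15.23 in the DA and 15.28 to 15.32 in the aorta, and the vessels did not overlap. For 20 smooth muscle contractile genes the sums were 13.20 to 13.46 in the DA and 12.93 to 13.01 in the aorta, and for 15 fibroblast markers 13.57 to 13.62 in the DA and 13.20 to 13.35 in the aorta, both higher in the DA without overlap. For 8 erythroid markers they were 8.50 to 8.58 in the DA and 9.10 to 9.25 in the aorta, lower in the DA without overlap, although Alas2, an enzyme of erythroid heme synthesis, lay at only 4.32 to 4.96 on the 6 arrays and Slc4a1, the anion exchanger of red cells, at 4.58 to 5.11. The mesothelial, leukocyte, Schwann cell, cardiomyocyte and venous and lymphatic lists overlapped between the vessels. Of the defining smooth muscle genes, Acta2 had 10.89, 11.36 and 10.997 on the DA arrays and 10.34, 10.65 and 10.41 on the aortic arrays, and Myh11, the smooth muscle myosin, had 6.58, 6.42 and 6.16 and 5.82, 5.57 and 5.94. Both were higher on all 3 DA arrays, at a log2 difference of 0.62 (adjusted p = 0.0436) and 0.61 (adjusted p = 0.124, 0.0323 with the block). The call of Acta2 was lost on leaving out any 1 of DA F arrays 1, 2 and 3, DA N arrays 2 and 3, aorta F array 2 and aorta N arrays 1, 2 and 3 (adjusted p = 0.0568 to 0.224). With the block its adjusted p was 0.00756. The defining fibroblast genes did not all follow their sum. Dcn, the proteoglycan decorin, had 7.03, 6.85 and 6.86 in the DA and 6.33, 6.51 and 6.23 in the aorta, Col1a1, a chain of type I collagen, had 11.18, 10.95 and 10.93 and 11.59, 11.41 and 11.48, and the receptor Pdgfra, below lys on 3 of the 12 arrays, had 5.02, 5.02 and 5.16 and 4.78, 5.15 and 5.08. Dcn was thus higher and Col1a1 lower on every DA array, and Pdgfra overlapped. Of 13 fibroblast markers measured, 2 were called higher and 0 lower (2 and 1 with the block). In RNA from sorted pools, fewer cells of a type and less RNA per cell cannot be told apart, and the part of these lists in the results that follow was not tested.

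**Figure D1:**
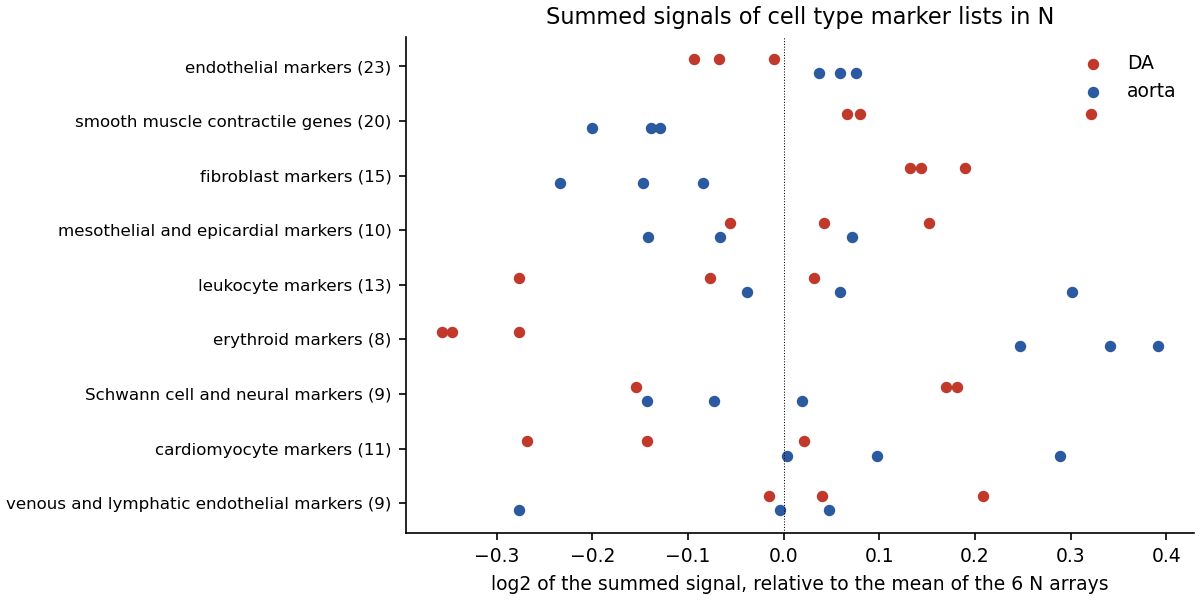
Summed signals of 9 lists of cell type markers on the 6 arrays of the N group, as log2 and relative to the mean of the 6, with the number of genes of each list in brackets. Each point is 1 array, red for the DA and blue for the aorta. The endothelial and erythroid lists sit lower and the smooth muscle and fibroblast lists higher in the DA without overlap, and the other 5 lists overlap.

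Across the genome, 406 of 11221 genes (3.62%) differed between ECs of the DA and of the aorta. Of them, 180 were higher and 226 were lower in the DA (1.6% and 2.01%), and 70 and 77 were so by at least 2-fold (0.624% and 0.686%). With the replicate number as a block, 398 genes were called higher (3.55%) and 517 lower (4.61%). The counts were 107 and 133 without DA N replicate 2, 119 and 136 without aorta N replicate 1, and 109 and 151 without aorta N replicate 2. The 3 DA arrays lay above or below the 3 aortic arrays for each of the 406 genes, against 803 genes above (7.16%) and 1024 below (9.13%) among all genes. The differences were mostly small, with a median of 0.89 among genes called higher and -0.82 among genes called lower. Only 2 genes were higher by 3 or more on the log2 scale, 6 were higher and 8 lower by 2 to 3, and all of these were called. The smallest difference called was that of Sgk1, a kinase induced by corticosteroids, at -0.40, and this call was lost on leaving out any 1 of the 12 arrays (adjusted p = 0.0645 to 0.199). Of the 406 calls, 212 held when any 1 of the 12 arrays was left out.

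**Figure D2:**
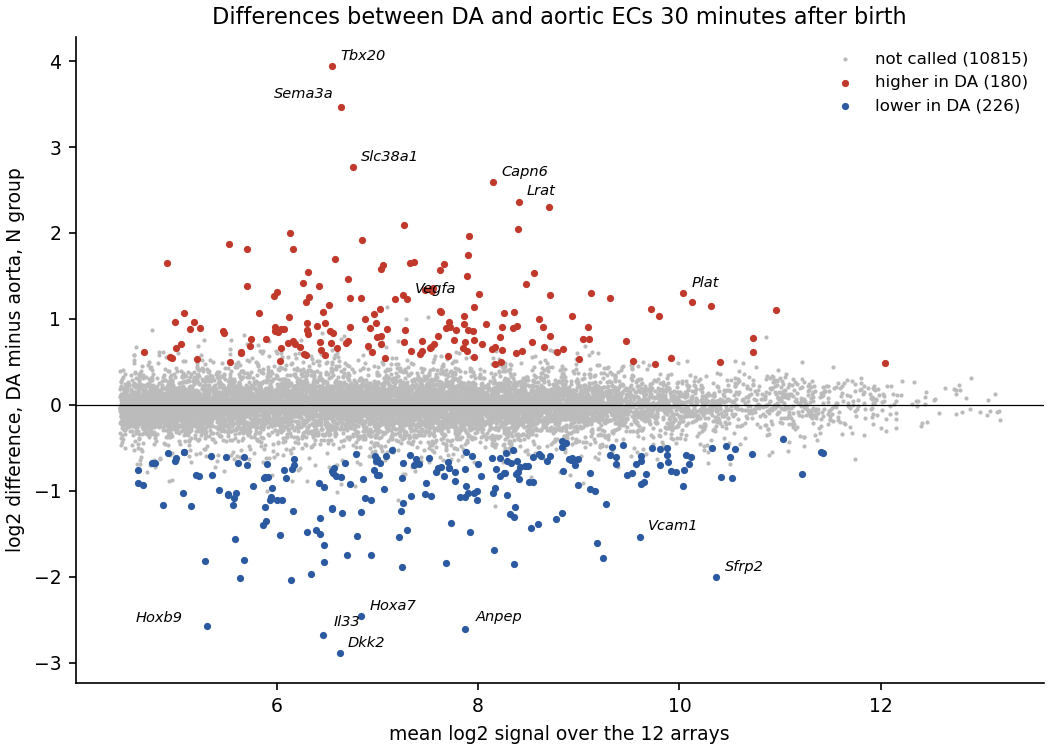
Log2 difference between DA and aorta in the N group (vertical axis) against the mean log2 signal over the 12 arrays (horizontal axis) for 11221 genes. Red points are the 180 genes called higher in the DA, blue points the 226 called lower and grey points the 10815 not called, and the called genes lie over most of the range of signal.

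A T-box factor, a guidance molecule and an amino acid transporter stood highest in the DA. Tbx20, a transcription factor of the developing heart, had log2 signals of 8.33, 8.40 and 8.86 on the DA arrays and 4.50, 4.56 and 4.71 on the aortic arrays. Its aortic signals were all near the mean level of lys and its DA signals far above it, and the measured fold was 15.4 (log2 difference 3.94, standard error 0.16, adjusted p = 1.35e-07, n = 3 arrays per vessel, limma). Replicate 1 of the aorta lay below lys on its own array, and with lys in its place the DA was at least 13.1-fold higher. Sema3a, a secreted repellent of axons, had 8.74, 8.43 and 8.13 in the DA and 5.02, 5.15 and 4.73 in the aorta, a fold of 11.1. With lys in place of the aortic signal below it on its own array, this fold was at least 10.65. Slc38a1, a transporter of glutamine, had 8.12, 8.35 and 8.03 and 5.55, 5.60 and 5.05, a fold of 6.81. For each of these genes the vessels lay much farther apart than the 3 arrays of either vessel.

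Enzymes, receptors and a ligand were also among the 15 largest rises. Capn6, a calpain-like protein that binds microtubules, had 9.41, 9.70 and 9.47 on the DA arrays against 6.81, 6.99 and 7.0 on the aortic arrays (difference 2.59, standard error 0.12, adjusted p = 2.75e-07). Lrat, which esterifies retinol for storage, had 9.62, 9.69 and 9.52 against 7.28, 7.09 and 7.36 (difference 2.37, adjusted p = 1.35e-05). Car8, a carbonic anhydrase relative without enzymatic activity, had 10.13, 10.02 and 9.81 against 7.90, 7.68 and 7.47 (difference 2.30, adjusted p = 1.35e-05). For all 3 the DA arrays lay above the aortic arrays without overlap. Gpr182, a receptor of endothelium that takes up chemokines, had 9.13, 9.55 and 9.73 against 7.20, 7.46 and 7.63 (difference 2.04, adjusted p = 4.34e-05). Gdf6, a ligand of the BMP family, had 8.38, 9.15 and 8.74 against 6.80, 6.83 and 6.77 (difference 1.96, adjusted p = 4.34e-05), and Trpc5, a calcium-permeable cation channel, had 8.05, 7.98 and 7.75 against 6.28, 5.95 and 5.80 (difference 1.92, adjusted p = 0.00105). No DA array of these 3 genes reached down to an aortic one. The remaining members of the 15 largest rises were Epb41l3, a linker of membrane and cytoskeleton, at a difference of 2.09, Ifitm1, an interferon-induced membrane protein, at 2.0, Dpp4, a dipeptidyl peptidase of the cell surface, at 1.88, Sntg2, a syntrophin, at 1.82, Prnp, the prion protein, at 1.81, and Cxadr, an adhesion protein of tight junctions, at 1.75. The adjusted p-values of these 6 lay between 3.45e-05 and 0.000218. This ranking holds only genes whose probe set carried a gene symbol of its own. The paper lists Glt25d2, Tbx1 and Zfp462 with N folds within the range of these rises, and they were not ranked here.

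Secreted Wnt modulators, a cytokine, a surface peptidase and trunk Hox genes stood lowest in the DA. Dkk2, a secreted modulator of Wnt receptors, had signals of 6.02, 4.59 and 5.15 on the DA arrays and 8.38, 8.06 and 8.0 on the aortic arrays. Replicate 1 of the DA was the highest of its vessel and still lay well under all aortic arrays (difference -2.89, standard error 0.32, adjusted p = 0.000213). With lys in place of the DA signal below it on its own array, Dkk2 was at least 7.1-fold higher in the aorta. Il33, which encodes the alarm cytokine interleukin-33, had 5.47, 5.05 and 5.0 in the DA and 8.10, 7.90 and 7.55 in the aorta, and was 6.38-fold higher in the aorta, or at least 5.9-fold with the same replacement. Anpep, an aminopeptidase of the cell surface, had 6.70, 6.46 and 6.52 and 9.11, 9.11 and 9.30 and was 6.11-fold higher in the aorta. The vessels lay much farther apart than the arrays of either vessel for both genes. Sfrp2, a secreted frizzled-related protein, was the brightest of the 15 largest falls, with 9.64, 9.31 and 9.07 in the DA and 11.29, 11.51 and 11.23 in the aorta (difference -2.0, standard error 0.14, adjusted p = 1.35e-05). Its DA arrays remained far above lys, so that the difference was measured on both sides.

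The other large falls covered matrix, secreted and membrane proteins. Lamb3, a laminin chain of epithelial basement membranes, had 5.62, 4.98 and 5.25 in the DA and 7.47, 7.09 and 7.19 in the aorta (difference -1.97, adjusted p = 0.000229). Nkx2-3, a homeodomain factor of gut and spleen, had 7.05, 6.87 and 6.62 and 8.79, 8.62 and 8.67 (difference -1.84, adjusted p = 3.28e-05). Dpep2, a membrane dipeptidase that acts on leukotrienes, had 7.45, 7.34 and 7.56 and 9.17, 9.43 and 9.31 (difference -1.85, adjusted p = 1.35e-05). The 3 aortic arrays were above all DA arrays in each case. Tnfsf10, the death ligand TRAIL, was at a difference of -1.83, Lrrc15, a leucine-rich membrane protein, at -2.04, Calml4, a calmodulin-like protein, at -1.88, Pi15, a secreted peptidase inhibitor, at -1.82, Cftr, a chloride channel, at -1.80, and Or4b1c, named as an olfactory receptor, at -2.01. Signals of Pi15, Cftr and Or4b1c were below lys on 3, 3 and 3 of the 12 arrays. With lys in place of any DA signal below it on its own array, the log2 difference was at least 1.80 for Lrrc15 and 1.36 for Pi15. The same bound was 1.39 for Cftr, 1.72 for Or4b1c and 1.91 for Lamb3, all higher in the aorta. The DA mean of Pi15 was 4.42, under the limit of 4.44. The paper lists Gpr126 with an N fold within the range of these falls, and it was not ranked here.

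**Figure D3:**
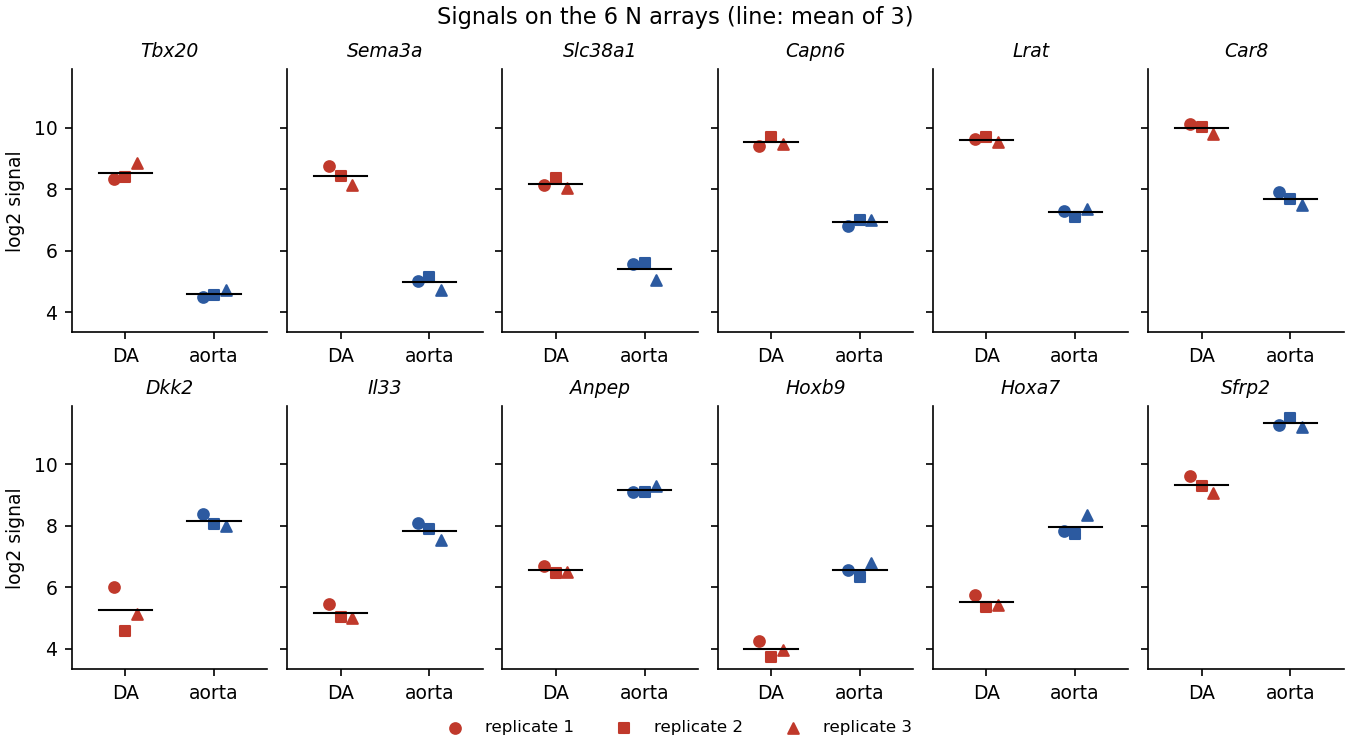
Log2 signals of 6 genes higher in the DA (upper row) and 6 genes higher in the aorta (lower row) on the 6 arrays of the N group. Each point is 1 array, its shape gives the replicate number, red is the DA and blue the aorta, and the lines are means of 3 arrays. In each panel all points of one vessel lie above all points of the other.

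The promoters of the genes at both ends of the ranking are shown because these genes carry the largest differences. Of the 3 largest rises and the 3 largest falls, 4 genes had an entry in the RefSeq promoter table of build GRCr8, which gives 250 bases before to 50 bases after the first listed start of transcription, read on the strand of the gene. They were Tbx20 (chr8:31533960-31534259, minus strand), Slc38a1 (chr7:129681352-129681651, minus strand), Il33 (chr1:237115323-237115622, plus strand) and Anpep (chr1:143195052-143195351, minus strand). Capitals mark matches, on either strand, to any of 8 motifs searched. These were the GATA site AGATAA, the T-box half-site AGGTGTGA, the homeodomain core TAATTA, the nuclear receptor half-site AGGTCA, the E-box CAGCTG, the GC box GGGCGG, the ETS site CCGGAAGT and the TATA box TATAAA.
Tbx20: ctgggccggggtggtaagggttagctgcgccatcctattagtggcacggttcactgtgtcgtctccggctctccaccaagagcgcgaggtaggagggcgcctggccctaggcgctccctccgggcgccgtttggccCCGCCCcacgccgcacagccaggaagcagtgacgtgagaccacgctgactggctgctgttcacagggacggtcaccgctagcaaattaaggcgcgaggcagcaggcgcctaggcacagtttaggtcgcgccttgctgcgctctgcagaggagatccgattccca
Slc38a1: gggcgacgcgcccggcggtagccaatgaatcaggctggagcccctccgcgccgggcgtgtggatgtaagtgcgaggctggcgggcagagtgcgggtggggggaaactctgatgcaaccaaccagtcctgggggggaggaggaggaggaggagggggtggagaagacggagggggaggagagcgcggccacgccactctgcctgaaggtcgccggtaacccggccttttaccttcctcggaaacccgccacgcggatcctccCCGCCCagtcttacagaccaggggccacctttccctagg
Il33: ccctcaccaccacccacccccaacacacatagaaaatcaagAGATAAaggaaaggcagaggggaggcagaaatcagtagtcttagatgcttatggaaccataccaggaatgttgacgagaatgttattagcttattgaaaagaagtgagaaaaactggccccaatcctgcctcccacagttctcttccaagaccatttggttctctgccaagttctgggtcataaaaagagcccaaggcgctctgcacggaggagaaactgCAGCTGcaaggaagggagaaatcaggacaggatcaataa
Anpep: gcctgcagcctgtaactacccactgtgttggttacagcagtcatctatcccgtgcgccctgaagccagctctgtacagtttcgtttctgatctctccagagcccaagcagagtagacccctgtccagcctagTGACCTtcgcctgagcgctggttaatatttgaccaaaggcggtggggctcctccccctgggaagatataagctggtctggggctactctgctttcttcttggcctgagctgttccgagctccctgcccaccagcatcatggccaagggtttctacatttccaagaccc
The capitals in Tbx20 and Slc38a1 are a GC box on the reverse strand, those in Il33 a GATA site and an E-box, and those in Anpep a nuclear receptor half-site on the reverse strand. The exact letters searched for the T-box half-site and the homeodomain core were in none of these 4 windows, and other forms of these motifs were not searched. Over the 136 promoters of genes called higher, the 177 of genes called lower and the 9280 of all genes tested that had an entry, the GATA site was in 6.62%, 7.34% and 6.44%. The E-box was in 15.4%, 22.0% and 16.7%, and the nuclear receptor half-site in 8.82%, 9.6% and 12.5%. The GC box was in 61.0%, 58.8% and 60.2%. The T-box half-site was in 0.735%, 1.13% and 0.916%, the homeodomain core in 3.68%, 2.26% and 2.28% and the TATA box in 8.09%, 10.7% and 7.47%. The ETS site was the one that differed most from its share among all genes, with 0.735%, 1.13% and 7.44%, which stood for 1 of 136, 2 of 177 and 690 of 9280 promoters. These shares are descriptions of fixed letters in fixed windows and were not tested.

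Several transcription factors of the heart and the pharyngeal arches were higher in the DA. Of 20 such factors measured, 6 were called higher, 1 was called lower and 13 did not pass the test. The shares of all genes were 1.6% and 2.01%. With the block the counts were also 6 and 1, against 3.55% and 4.61%. In all, 12 lay above 0 and 8 below, with a median of 0.05 against -0.01 over all genes. The list was drawn up with earlier results of these data known, so its counts describe the list and do not test it. Gata5 and Gata4, zinc finger factors of heart and endocardium, had 6.75, 6.90 and 7.55 and 6.49, 6.0 and 6.60 on the DA arrays against 5.36, 5.55 and 5.67 and 4.98, 4.92 and 5.05 on the aortic arrays. Every DA array lay above every aortic array, with differences of 1.54 (standard error 0.23, adjusted p = 0.00206) and 1.38 (standard error 0.16, adjusted p = 0.000316). Gata6, another member of that family, had 10.98, 11.08 and 11.21 and 10.88, 11.002 and 11.14, overlapped between the vessels and was not called (difference 0.08, adjusted p = 0.992). Hand2, a basic helix-loop-helix factor of heart and arches, had 7.84, 7.85 and 8.06 in the DA and 6.36, 6.54 and 7.01 in the aorta. Tbx18, a T-box factor of mural and epicardial progenitors, had 10.82, 10.87 and 10.88 and 9.73, 9.63 and 9.77, and Isl1, a homeodomain factor of the second heart field, had 8.41, 8.18 and 8.23 and 7.53, 7.25 and 7.21. The differences were 1.28 (adjusted p = 0.000803), 1.15 (adjusted p = 5e-05) and 0.94 (adjusted p = 0.00271), and in all 3 genes the vessels did not overlap.

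The trunk Hox genes that were called were all lower in the DA, and anterior Hox genes were called in both directions. Of 7 genes measured of paralog groups 5 to 11, which pattern the trunk, 4 were called lower, 0 higher and 3 did not pass the test. The counts were the same with the block, 4 lower and 0 higher. Among all genes, 1.6% were called higher and 2.01% lower (3.55% and 4.61% with the block). The median difference of the 7 was -0.95 against -0.01 over all genes. Hoxa7 had 5.77, 5.36 and 5.43 in the DA and 7.83, 7.75 and 8.36 in the aorta, and Hoxb8 had 5.11, 5.40 and 4.92 and 6.68, 6.21 and 6.73. Hoxb9 had 4.27, 3.72 and 3.97 and 6.56, 6.34 and 6.78 and was below lys on 4 of the 12 arrays. All 3 DA signals of Hoxb9 lay under the limit of 4.44, so that it passed the filter through the other arrays, and with lys in place of any DA signal below it on the same array it was at least 3.29-fold higher in the aorta. The aorta was above the DA on every array in all 3 genes, at differences of -2.46 (adjusted p = 4.78e-05), -1.40 (adjusted p = 0.000677) and, as measured, -2.57 (adjusted p = 1.84e-05). Hoxb7 was called at -0.95, and this call was lost on leaving out DA N array 2 (adjusted p = 0.057). Hoxa5, the most anterior member of this list, had 10.03, 10.45 and 10.48 and 9.99, 9.90 and 10.24, was bright in both vessels and was not called (0.28, adjusted p = 0.755). Of 8 genes measured of paralog groups 1 to 4, which pattern the hindbrain and the arches, 2 were called higher and 1 lower. The counts were also 2 and 1 with the block, and 5 did not pass the test without it. Hoxa2 had 9.05, 9.29 and 9.27 in the DA and 8.20, 8.13 and 8.27 in the aorta (difference 1.0, adjusted p = 0.000619). Hoxb3 went the other way, with 6.82, 7.07 and 7.37 and 8.03, 7.88 and 8.53 (difference -1.06, adjusted p = 0.00869). Hoxa4 was called higher at 1.28, and its call was lost on leaving out any 1 of DA F arrays 1, 2 and 3, DA N arrays 2 and 3, aorta F arrays 2 and 3 and aorta N arrays 1 and 2 (adjusted p = 0.0544 to 0.198). Anterior Hox genes thus did not all move one way, and the called members of the HoxA cluster differed in direction between the anterior genes Hoxa2 and Hoxa4 and the trunk gene Hoxa7.

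**Figure D4:**
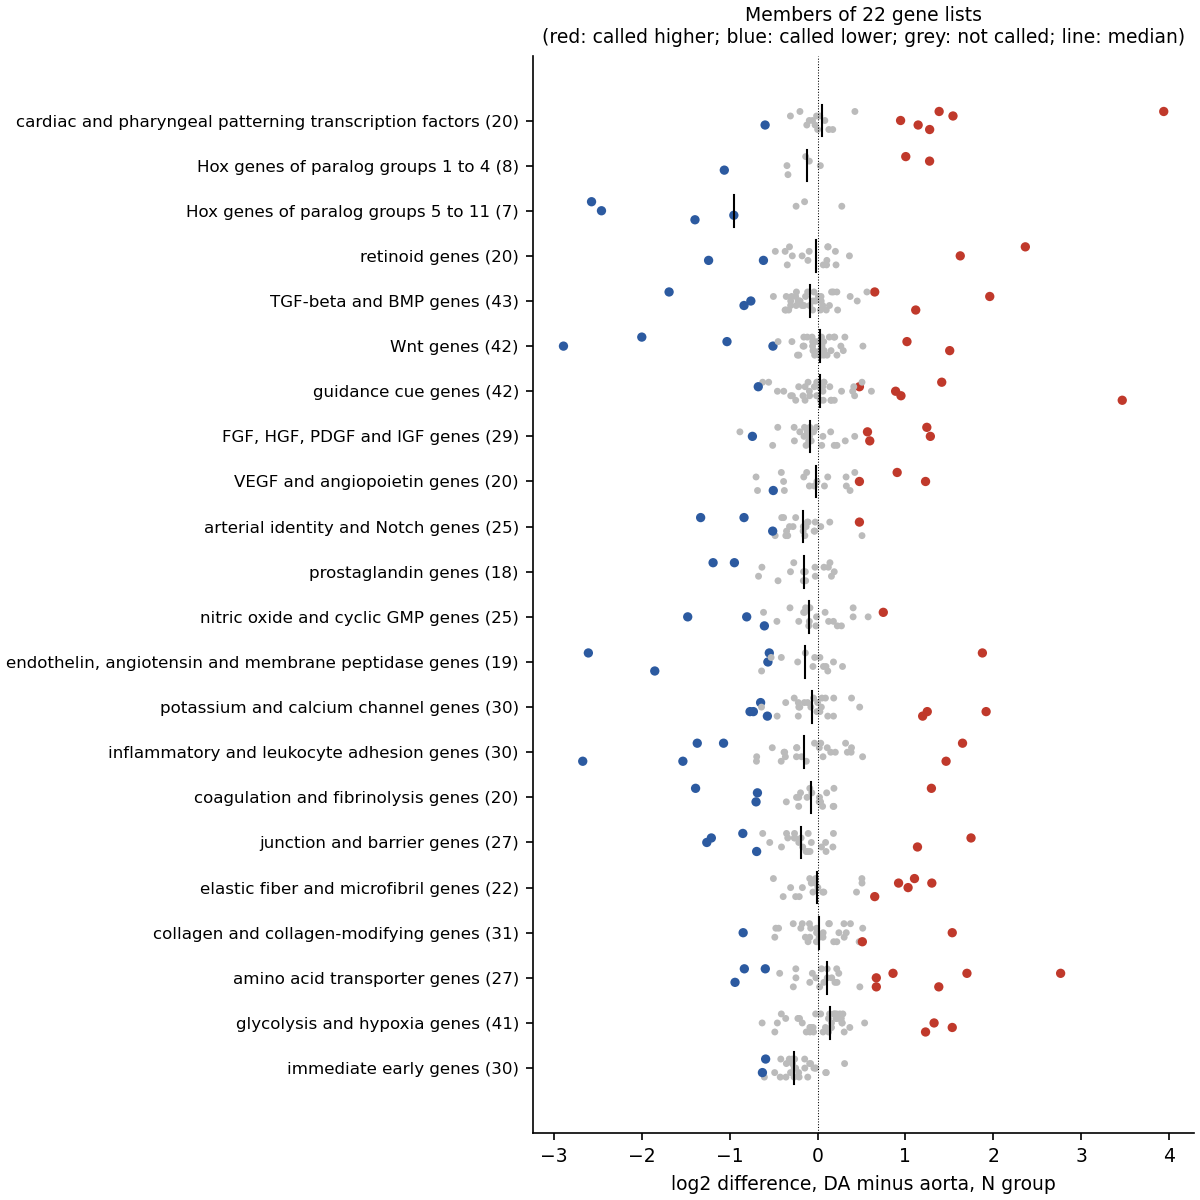
Log2 differences, DA minus aorta in the N group, of the measured members of 22 gene lists, with the number of members in brackets. Each point is 1 gene, red if called higher, blue if called lower and grey if not called, and black lines are list medians. Most members lie within 1 of zero, and the trunk Hox list has the lowest median, at -0.95.

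Ligands and receptors of several signalling pathways differed in both directions. Among 43 TGF-beta and BMP genes, 3 were called higher and 3 lower (3 and 4 with the block). The counts of this list and of those that follow stand beside 1.6% higher and 2.01% lower among all genes (3.55% and 4.61% with the block). These lists too were drawn up with earlier results of the data known, so the counts describe the lists and do not test them. Of the ligands, Tgfb2 had 10.19, 10.30 and 10.30 in the DA and 9.19, 9.10 and 9.16 in the aorta, and Gdf15, a stress-induced distant member of the family, had 7.35, 7.41 and 7.47 and 9.08, 8.98 and 9.24. Tgfb2 was higher in the DA by 1.12 (standard error 0.13, adjusted p = 0.000268) and Gdf15 was 3.23-fold higher in the aorta (adjusted p = 1.35e-05), in each case without overlap. Of the receptors, Acvrl1, the ALK1 receptor of endothelium for circulating BMPs, had 10.10, 9.96 and 9.84 in the DA and 10.95, 10.70 and 10.77 in the aorta (difference -0.84, adjusted p = 0.00171). The direct BMP targets Id1 and Smad6 did not pass the test, at -0.24 and -0.11, and Bmp4, a bright ligand of both vessels, was at 0.18 (adjusted p = 0.969).

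Among 42 Wnt genes, 2 were called higher and 4 lower (3 and 4 with the block), against 1.6% and 2.01% of all genes (3.55% and 4.61% with the block). Besides the secreted modulators Dkk2 and Sfrp2, Ror2, a receptor for Wnt5a, was lower in the DA, with 7.46, 7.59 and 7.68 against 8.59, 8.48 and 8.75 in the aorta (difference -1.03, adjusted p = 0.00213). Lgr5, a receptor for R-spondins, was higher, with 8.59, 8.82 and 8.53 against 7.22, 7.29 and 6.93 (difference 1.50, adjusted p = 0.000602). The vessels did not overlap for either receptor. Dkk1, an inhibitor of Wnt coreceptors, was called higher at 1.02, a call that was lost on leaving out any 1 of DA N arrays 1, 2 and 3 and aorta N arrays 1, 2 and 3 (adjusted p = 0.0609 to 0.127). Axin2 and Lef1, transcribed in response to canonical Wnt signals, were at 0.04 and -0.03, and neither passed the test (adjusted p = 0.999 and 0.999).

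Growth factors of vessels and mesenchyme were higher in the DA in several instances. Of 20 VEGF and angiopoietin genes, 3 were called higher and 1 lower (3 and 2 with the block). Vegfa, the main growth factor of endothelium, had 7.81, 7.90 and 7.95 in the DA and 6.73, 6.67 and 6.58 in the aorta, and Apln, the ligand of the apelin receptor, had 7.02, 7.29 and 6.90 and 6.12, 6.34 and 6.03. Both were above the aorta on every DA array, with folds of 2.34 (adjusted p = 0.000323) and 1.87 (adjusted p = 0.00469). The VEGF receptor Kdr was at 0.12 (adjusted p = 0.982), and Vegfc, a ligand of lymphatic growth, was at -0.68 and passed the test only with the block (adjusted p = 0.246, 0.0259 with the block). Of 29 FGF, HGF, PDGF and IGF genes, 4 were called higher and 1 lower (4 and 3 with the block). Fgf10, a ligand of the second heart field, had 7.41, 7.30 and 7.52 against 6.22, 5.87 and 6.41 (difference 1.24, adjusted p = 0.000387), and Met, the receptor of hepatocyte growth factor, had 8.99, 8.60 and 8.73 against 7.69, 7.53 and 7.26 (difference 1.28, adjusted p = 0.000302), again without overlap. Hgf, the ligand of Met, was below lys on 3 of the 12 arrays and overlapped between the vessels (-0.45, adjusted p = 0.585). Gli2, a transcription factor of Hedgehog signalling, was the one gene called among 10 Hedgehog genes (2 called higher and 0 lower with the block), with 6.75, 6.98 and 7.29 against 5.98, 5.84 and 5.97 (difference 1.08, adjusted p = 0.00277).

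Of 42 guidance cue genes, 5 were called higher and 1 lower (8 and 3 with the block). Beside Sema3a, the ligand Efnb1 had 7.03, 6.90 and 6.74 in the DA and 5.28, 5.60 and 5.54 in the aorta (difference 1.41, adjusted p = 0.000218), and Efnb2, the ephrin of arterial endothelium, had 10.43, 10.37 and 10.32 and 10.27, 10.27 and 10.18 (difference 0.14, adjusted p = 0.886). Efnb1 and Efnb2 thus both lay higher on the DA arrays, without overlap, but only Efnb1 passed the test. Of the receptors, Robo2, which binds Slit ligands, was higher at 0.89 (adjusted p = 0.00542, below lys on 3 of the 12 arrays), and Unc5c, a netrin receptor, was lower at -0.68 (adjusted p = 0.00371). Nrp1, the coreceptor of Sema3a and VEGF, had 10.03, 10.02 and 9.88 in the DA and 9.60, 9.54 and 9.36 in the aorta. It was called at 0.48, and the call was lost on leaving out any 1 of the 12 arrays (adjusted p = 0.0511 to 0.207).

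Several genes of the vasoactive pathways were lower in the DA, and a few were higher. Of 18 prostaglandin genes measured, 0 were called higher and 2 lower (0 and 5 with the block). Ptgs2, the inducible cyclooxygenase, had 9.68, 9.47 and 9.46 in the DA and 10.54, 10.40 and 10.50 in the aorta, and Abcc4, which pumps cyclic AMP and prostaglandins out of cells, had 8.10, 7.64 and 7.60 and 9.0, 8.91 and 9.0. Both were lower on every DA array, at differences of -0.95 (standard error 0.11, adjusted p = 0.000342) and -1.19 (standard error 0.16, adjusted p = 0.000829), and the second probe set of Abcc4 was at -0.34 and did not pass. Slco2a1, which takes up prostaglandins for breakdown, had 11.05, 11.59 and 11.60 in the DA and 11.84, 12.08 and 12.22 in the aorta, lower on every DA array, and passed only with the block (-0.63, adjusted p = 0.133, 0.00117 with the block). Ptgs1, Ptgis and Ptger4, the constitutive cyclooxygenase, the prostacyclin synthase and the EP4 receptor, were bright in both vessels and were at -0.14, 0.16 and -0.03, with no call.

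Of 25 nitric oxide and cyclic GMP genes, 1 was called higher and 3 lower (2 and 5 with the block). Nos3, the synthase of endothelium, had 11.05, 10.85 and 10.87 in the DA and 11.23, 11.04 and 11.14 in the aorta, and lay a little lower in the DA without passing the test (-0.21, adjusted p = 0.759). Gucy1a1, which encodes one chain of the nitric oxide receptor in the cytosol, had 5.83, 5.43 and 5.79 and 7.29, 7.14 and 7.05, and was 2.79-fold higher in the aorta (adjusted p = 0.000107). Its partner chain Gucy1b1 was called lower at -0.61, a call lost on leaving out any 1 of DA N arrays 1 and 2, aorta F array 2 and aorta N arrays 1 and 3 (adjusted p = 0.0525 to 0.158). Npr2, the receptor of C-type natriuretic peptide, was lower at -0.81, a call lost on leaving out any 1 of aorta N arrays 1 and 2 (adjusted p = 0.0517 to 0.0526). Nos1, the neuronal synthase, was called higher at 0.75, a call lost on leaving out any 1 of DA N arrays 1 and 3 and aorta N arrays 1, 2 and 3 (adjusted p = 0.0589 to 0.12). Gucy1a1 and Gucy1b1 are also expressed in vascular smooth muscle, whose contractile genes had a higher summed signal in the DA, and the part of such cells in these differences was not tested.

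Of 19 endothelin, angiotensin and membrane peptidase genes, 1 was called higher and 4 lower (1 and 5 with the block). Edn1, the endothelin of ECs, had 11.61, 11.77 and 11.43 in the DA and 11.56, 11.73 and 11.68 in the aorta, and its converting enzyme Ece1 had 11.94, 12.001 and 11.99 and 11.89, 11.98 and 11.99. Both were among the brightest genes of the list and overlapped between the vessels (-0.05 and 0.03, adjusted p = 0.999 and 0.999). The surface peptidases moved both ways. Dpp4 had 6.87, 6.49 and 6.39 in the DA and 4.83, 4.84 and 4.45 in the aorta (difference 1.88, adjusted p = 0.000148), while Anpep and Dpep2 were lower in the DA, as given above. Ace, the angiotensin-converting enzyme, was called lower at -0.55, a call lost on leaving out aorta N array 1 (adjusted p = 0.0521). 

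Of 30 potassium and calcium channel genes, 3 were called higher and 4 lower (5 and 6 with the block). Trpc5 was highest, followed by Cacnb3, a subunit of voltage-gated calcium channels, with 7.23, 7.43 and 7.69 in the DA and 6.01, 6.30 and 6.30 in the aorta, and by Hcn4, the pacemaker channel of the sinus node, with 6.92, 6.85 and 7.09 and 5.69, 5.57 and 6.01. The latter 2 did not overlap and differed by 1.25 (adjusted p = 0.000315) and 1.20 (adjusted p = 0.000829). Atp2a3, a calcium pump of the endoplasmic reticulum, had 9.67, 9.57 and 9.54 against 10.36, 10.30 and 10.42, and Kcnq1, a voltage-gated potassium channel, had 7.08, 7.27 and 7.26 against 7.86, 8.01 and 7.94. These were lower on every DA array, by differences of -0.77 (adjusted p = 0.00105) and -0.73 (adjusted p = 0.0052). Kcnj8, a pore subunit of ATP-sensitive channels, was at 0.48 and passed only with the block (adjusted p = 0.358, 0.0348 with the block), and Piezo1, a channel opened by stretch and flow, was at -0.05 (adjusted p = 0.999).

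Retinoid genes were called in both directions, 2 higher and 2 lower of 20 measured (2 and 4 with the block). Beside Lrat, Aldh1a1, which makes retinoic acid, had 8.64, 7.80 and 7.46 in the DA and 7.0, 6.27 and 5.76 in the aorta. Replicate 1 was the highest and replicate 3 the lowest in both vessels, and every DA array still lay above every aortic array, at a difference of 1.62 (standard error 0.35, adjusted p = 0.0255). The call was lost on leaving out any 1 of DA N arrays 1 and 2 and aorta N arrays 2 and 3 (adjusted p = 0.0739 to 0.108), and with the block the adjusted p of Aldh1a1 was 5.09e-05. Cyp26b1, which breaks retinoic acid down, had 7.0, 6.35 and 6.67 in the DA and 8.07, 7.74 and 7.94 in the aorta, lower without overlap (difference -1.24, standard error 0.16, adjusted p = 0.000772). Aldh1a3, a further synthase, was called lower at -0.62, a call lost on leaving out any 1 of DA F arrays 1, 2 and 3, DA N arrays 2 and 3, aorta F arrays 2 and 3 and aorta N arrays 1 and 2 (adjusted p = 0.0506 to 0.183). Its adjusted p with the block was 0.0104.

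Some genes that recruit leukocytes were lower in the DA, and a pentraxin and a complement regulator were higher. Of 30 inflammatory and leukocyte adhesion genes, 2 were called higher and 4 lower (4 and 10 with the block). Vcam1, an adhesion molecule for leukocytes, had 8.82, 8.51 and 8.61 in the DA and 10.09, 10.04 and 10.42 in the aorta and was 2.9-fold higher in the aorta (standard error 0.13 on the log2 scale, adjusted p = 4.34e-05). Cxcl10, a chemokine induced by interferon, had 7.64, 7.27 and 7.05 and 8.42, 8.15 and 8.60 (difference -1.07, adjusted p = 0.00924), again without overlap. Il6, a cytokine, was called lower at -1.37, a call lost on leaving out aorta N array 1 (adjusted p = 0.0502). Icam1, a further adhesion molecule, had 11.04, 11.31 and 11.05 and 11.45, 11.59 and 11.61, lay lower on every DA array and passed only with the block (-0.41, adjusted p = 0.154, 0.02 with the block), whereas Selp, the P-selectin of ECs, was at 0.34 (adjusted p = 0.268). Higher in the DA were Ptx3, a secreted pentraxin, with 8.40, 8.30 and 7.64 against 6.73, 6.40 and 6.26 (difference 1.65, adjusted p = 0.00503), and Cd55, which restrains complement, with 7.28, 7.69 and 7.54 against 6.09, 6.05 and 5.99 (difference 1.46, adjusted p = 0.000772). Of 20 interferon and antigen presentation genes, 2 were called higher and 1 lower (4 and 3 with the block). Ifitm1 and the nuclear body protein Sp100 were higher, Sp100 with 7.94, 7.85 and 7.90 against 6.62, 6.18 and 6.12 (difference 1.59, adjusted p = 8.63e-05), and Gbp5, a guanylate-binding protein, was lower, with 5.38, 5.38 and 5.51 against 6.77, 6.42 and 6.79 (difference -1.24, adjusted p = 9.62e-05). B2m, the light chain of class I molecules, did not pass (-0.18, adjusted p = 0.842).

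Of 20 coagulation and fibrinolysis genes, 1 was called higher and 3 lower. Plat, the tissue plasminogen activator, had 10.85, 11.16 and 10.85 in the DA and 9.66, 9.69 and 9.62 in the aorta and was 2.46-fold higher in the DA (standard error 0.12 on the log2 scale, adjusted p = 5.22e-05). Serpinf1, an antiangiogenic serpin, had 8.21, 7.89 and 7.59 and 9.46, 9.16 and 9.25, and Entpd1, which removes ATP and ADP from blood, had 9.90, 9.77 and 9.90 and 10.42, 10.56 and 10.65. Both were lower on every DA array (-1.39 and -0.68, adjusted p = 0.00073 and 0.00444). Thbd, the receptor of thrombin that starts protein C activation, was called lower at -0.70, a call lost on leaving out any 1 of DA F array 2, DA N arrays 2 and 3, aorta F array 2 and aorta N arrays 1, 2 and 3 (adjusted p = 0.0542 to 0.125).

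Some junction, Notch and basement membrane genes were lower in the DA, and a few were higher. Of 27 junction and barrier genes, 2 were called higher and 4 lower (2 and 7 with the block), and 20 lay below 0, as did 5823 of all 11221 genes. Cdh2, the N-cadherin, had 8.52, 8.52 and 8.55 in the DA and 7.41, 7.34 and 7.43 in the aorta (difference 1.14, standard error 0.11, adjusted p = 9.48e-05). Cdh13, the T-cadherin that binds adiponectin, had 8.09, 8.13 and 8.50 and 9.33, 9.52 and 9.66 (difference -1.26, adjusted p = 0.00108). Cdh2 was thus higher and Cdh13 lower on every DA array, while Cdh5 overlapped. Of 25 arterial identity and Notch genes, 1 was called higher and 3 lower (2 and 7 with the block), and 21 lay below 0, beside the same 5823 of all genes. Jag2, a Notch ligand, had 8.22, 8.03 and 8.0 in the DA and 9.40, 9.29 and 9.55 in the aorta (difference -1.33, standard error 0.12, adjusted p = 4.78e-05). Gja5, the connexin of arterial endothelium, had 11.44, 11.31 and 11.33 and 11.69, 11.78 and 11.62, lay lower on every DA array, and passed only with the block (-0.34, adjusted p = 0.133, 0.0366 with the block). Dll4 and Notch1, the main arterial ligand and receptor, were at -0.39 and -0.12 (adjusted p = 0.469 and 0.934). Of 23 integrin and laminin genes, 0 were called higher and 4 lower (2 and 6 with the block). Lamb3, given above, had beside it Lama3, a partner chain of the same laminin, with 5.65, 5.42 and 5.46 in the DA and 6.55, 6.45 and 6.42 in the aorta (difference -0.97, adjusted p = 0.000349), and Itgb4, an integrin that binds that laminin, with 9.32, 9.29 and 9.51 and 9.96, 10.02 and 10.11 (difference -0.66, adjusted p = 0.00389). In all 3 the aorta was higher without overlap. The summed endothelial markers were lower in the DA as well, at 15.15 to 15.23 against 15.28 to 15.32, and their part in these lists was not tested.

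Several genes of microfibrils and of collagen processing were higher in the DA. Of 22 elastic fiber and microfibril genes, 5 were called higher and 0 lower (8 and 1 with the block). Fbn1, the fibrillin of microfibrils, had 10.62, 10.33 and 10.15 in the DA and 9.53, 9.36 and 9.12 in the aorta, Mfap5 had 10.09, 9.78 and 9.65 and 8.93, 8.45 and 8.24, and Mfap4 had 11.20, 11.66 and 11.68 and 10.23, 10.30 and 10.70. These microfibril genes were higher on every DA array, by 1.03 (adjusted p = 0.0051), 1.30 (adjusted p = 0.00622) and 1.10 (adjusted p = 0.00644). Eln, the elastin gene, and Fbln5, which assembles elastic fibers, were among the brightest genes of the arrays and were at -0.17 and -0.07 (adjusted p = 0.755 and 0.992). Of 31 collagen and collagen-modifying genes, 2 were called higher and 1 lower (4 and 4 with the block), with P4ha1, a catalytic subunit of collagen prolyl hydroxylase, at 9.55, 9.23 and 9.20 in the DA and 8.05, 7.71 and 7.63 in the aorta (difference 1.53, adjusted p = 0.000213). Col1a1 went the other way and passed only with the block (-0.48, adjusted p = 0.0734, 0.0105 with the block). Of 28 matrix proteases and inhibitors, 3 were called higher and 2 lower (3 and 4 with the block). Adamts2, which trims procollagen, had 10.84, 10.74 and 10.76 in the DA and 9.60, 9.42 and 9.73 in the aorta (difference 1.20, standard error 0.12, adjusted p = 9.14e-05), and Mmp28, a secreted metalloproteinase, was lower, with 9.02, 9.16 and 9.27 and 9.99, 10.05 and 10.17 (difference -0.92, adjusted p = 0.000684). Of 27 proteoglycan genes, 1 was called higher and 4 lower (5 and 5 with the block). Sdc2, a heparan sulfate proteoglycan of the cell surface, had 8.73, 8.29 and 8.29 in the DA and 10.16, 9.94 and 10.05 in the aorta (3.06-fold higher in the aorta, adjusted p = 4.92e-05), and Hapln1, which links hyaluronan to proteoglycans, had 6.05, 5.52 and 5.32 and 7.33, 7.10 and 6.98 (difference -1.50, adjusted p = 0.000563). Has2, the main hyaluronan synthase, had 6.35, 6.15 and 5.61 and 5.52, 5.29 and 5.16, was higher on every DA array and passed only with the block (0.71, adjusted p = 0.0673, 0.00156 with the block).

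Part of the contractile genes of smooth muscle were higher in the DA samples. Of 19 measured, 7 were called higher and 0 lower (10 and 1 with the block), and their median was 0.61 against -0.01 over all genes. Actg2, the enteric smooth muscle actin, had 8.87, 8.58 and 8.04 in the DA and 6.99, 6.98 and 6.82 in the aorta, and Csrp2, a LIM protein of smooth muscle, had 9.43, 9.54 and 9.32 and 8.51, 8.46 and 8.58. The 3 DA arrays of each gene lay above the aorta by 1.57 (standard error 0.20, adjusted p = 0.000767) and 0.91 (standard error 0.14, adjusted p = 0.0024). Des, the desmin filament, was higher at 0.86 (adjusted p = 0.00307), and Tagln, the calponin-related transgelin, at 1.09, a call lost on leaving out any 1 of DA N arrays 1 and 2 and aorta N arrays 2 and 3 (adjusted p = 0.0829 to 0.134). Cnn1, the calponin of differentiated smooth muscle, overlapped between the vessels and was at 0.47 (adjusted p = 0.295). Of 17 genes linked to epithelial-to-mesenchymal transition, 5 were called higher, among them Cdh2, Tgfb2 and Met with the values above, and 1 lower (5 and 2 with the block). Snai1 and Zeb2, transcription factors that drive that transition, were at 0.16 and -0.06 (adjusted p = 0.979 and 0.999), and Twist1, another, was called higher at 0.83, a call lost on leaving out any 1 of DA N array 2 and aorta N arrays 1 and 2 (adjusted p = 0.0527 to 0.0796). The summed smooth muscle markers, 13.20 to 13.46 in the DA and 12.93 to 13.01 in the aorta, and the summed fibroblast markers, 13.57 to 13.62 and 13.20 to 13.35, were higher in the DA as well. The smooth muscle sum is made of this same contractile list. The fibroblast list shares Mfap5, its largest difference at 1.30, with the microfibril list. The sums are thus not separate from the genes they stand beside, and the part of these cell types was not tested.

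Several transporters of amino acids differed between the vessels, and few genes of glycolysis and hypoxia did. Of 27 amino acid transporter genes, 6 were called higher and 3 lower (6 and 4 with the block), against 1.6% and 2.01% of all genes. Slc7a8, an exchanger of large neutral amino acids, had 6.89, 7.59 and 7.60 in the DA and 5.45, 5.57 and 5.95 in the aorta, and Slc43a1, which carries branched-chain amino acids, had 7.27, 7.11 and 6.81 and 5.81, 5.67 and 5.56. Both were higher on every DA array (1.70 and 1.38, adjusted p = 0.0028 and 0.000218). Slc6a6, the taurine transporter, was lower, with 5.49, 5.32 and 5.16 and 6.47, 6.25 and 6.07 (difference -0.94, adjusted p = 0.00483). Slc38a2, a close relative of Slc38a1, was bright in both vessels and did not pass (-0.25, adjusted p = 0.807). Of 41 glycolysis and hypoxia genes, 3 were called higher and 0 lower (4 and 2 with the block), and the 3 were P4ha1, Vegfa and Aldoc, a fructose bisphosphate aldolase, at 8.34, 8.32 and 7.99 in the DA and 7.33, 6.95 and 6.39 in the aorta (difference 1.33, adjusted p = 0.00637). Other targets of hypoxia, the glucose transporter Slc2a1, the kinases Pgk1 and Pdk1 and the mitophagy protein Bnip3, were at 0.27, 0.16, 0.25 and 0.29, and their adjusted p-values were 0.427 to 0.999.

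Genes of rapid responses and of growth showed small differences. Of 30 immediate early genes, 27 lay below 0 in the DA, with a median of -0.26 against -0.01 over all genes, of which 5823 of 11221 lay below 0, and 0 were called higher and 2 lower (0 and 7 with the block). Fos, Egr1 and Nr4a1, transcription factors induced within minutes, were at -0.15, -0.09 and -0.29, with adjusted p-values of 0.982, 0.978 and 0.537. Klf10, a zinc finger factor induced by TGF-beta, was called, with 9.40, 9.48 and 9.41 in the DA and 10.05, 10.002 and 10.02 in the aorta (difference -0.59, adjusted p = 0.00936). The other call was that of Nr4a3, an orphan nuclear receptor, at -0.63, which was lost on leaving out any 1 of DA N arrays 1 and 2 and aorta N arrays 1 and 3 (adjusted p = 0.0581 to 0.104). Klf2 and Klf4, factors induced by laminar flow, were at 0.31 and -0.04 and were not called. Of 25 glucocorticoid and cyclic AMP responsive genes, 0 were called higher and 4 lower (0 and 6 with the block). Nr3c2, the mineralocorticoid receptor, had 5.49, 5.43 and 5.74 in the DA and 6.77, 6.50 and 6.72 in the aorta, and Hsd11b2, which inactivates glucocorticoids, had 6.16, 6.04 and 6.31 and 6.90, 6.76 and 7.06. Both were lower on every DA array (-1.11 and -0.74, adjusted p = 0.000619 and 0.00401). Of 32 cell cycle genes, 0 were called higher and 2 lower (3 and 3 with the block), and 26 lay above 0, as did 5398 of all 11221 genes. Cdkn1c, an inhibitor of cyclin-dependent kinases, had 7.0, 6.93 and 6.98 in the DA and 7.64, 7.58 and 7.80 in the aorta (difference -0.70, adjusted p = 0.00502), and the inhibitor Cdkn1a was called at -0.75, a call lost on leaving out any 1 of DA N arrays 2 and 3 and aorta N arrays 1 and 3 (adjusted p = 0.0631 to 0.0962). Top2a, a topoisomerase of dividing cells, was at 0.23 (adjusted p = 0.976). Of 16 YAP and mechanical target genes, 0 were called in either direction by limma, with or without the block, and Ccn1, the brightest of its named members, was at -0.08 (adjusted p = 0.988).

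The differences between the vessels in N were set beside those in F, which used other arrays of the same fit. In F, 211 genes were called higher (1.88%) and 297 lower (2.65%). Of the 406 genes called in N, 346 were also called in F with the same sign and 60 were not called in F. Whether the difference between the vessels changed from F to N was tested for every gene, and limma called 0 of 11221 (0.0%), with 84 (0.749%) at an unadjusted p under 0.05 and a smallest adjusted p of 1. With the block the smallest adjusted p was 0.999 and 396 genes had an unadjusted p under 0.05, and without the block there were 152 such genes without DA F replicate 1 and 151 without aorta N replicate 1. None of the 60 genes was therefore shown to differ between the stages. Rasgrf2, an exchange factor for Ras, was the only gene called in N whose value in F had the opposite sign. It had 4.72, 4.89 and 4.50 in the DA and 5.62, 5.38 and 5.58 in the aorta in N, and 5.12, 5.25 and 5.49 and 5.27, 5.40 and 5.15 in F. The vessels were apart in N and overlapped in F (differences -0.82 and 0.01, adjusted p = 0.00607 and 0.99), and the change between them had an unadjusted p of 0.00134 and an adjusted p of 1. Fibin, a secreted protein of mesenchyme, was higher in the DA in N, with 5.86, 5.44 and 5.34 against 4.46, 4.79 and 4.52, and had 4.88, 4.97 and 5.22 against 4.66, 4.95 and 4.80 in F (differences 0.96 and 0.22). Tpd52l3 was lower in the DA, with differences of -0.93 in N and -0.14 in F, and was below lys on 3 of the 12 arrays. Its DA signals in N were all under 4.44, and with lys as the floor on each array it was at least 1.18-fold higher in the aorta. Ccn2, a matricellular growth factor, was among the 10 genes with the smallest p of the change, at 0.37 in N and 1.13 in F. In N it had 9.02, 9.01 and 8.67 in the DA and 8.73, 8.42 and 8.43 in the aorta. Nr4a2, an immediate early nuclear receptor, had 10.92, 11.06 and 10.95 in the DA and 11.01, 10.86 and 11.12 in the aorta in N, where the vessels overlapped, and was at -0.02 in N and -0.72 in F. Ptgds, a prostaglandin D synthase, Xrcc2, a DNA repair protein, Map10, a microtubule-associated protein, Amtn, an enamel protein, and Cyp2d1, a cytochrome P450, were the other 5 of the 10. Their differences were -0.45, -0.15, -0.31, -0.47 and -0.03 in N and 0.50, 0.61, 0.33, 0.39 and 0.73 in F, and none of the 5 passed the test in N (Ptgds with the block, adjusted p = 0.0491). Signals of Ptgds, Map10, Amtn and Cyp2d1 were below lys on 5, 3, 6 and 3 of the 12 arrays.

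**Figure D5:**
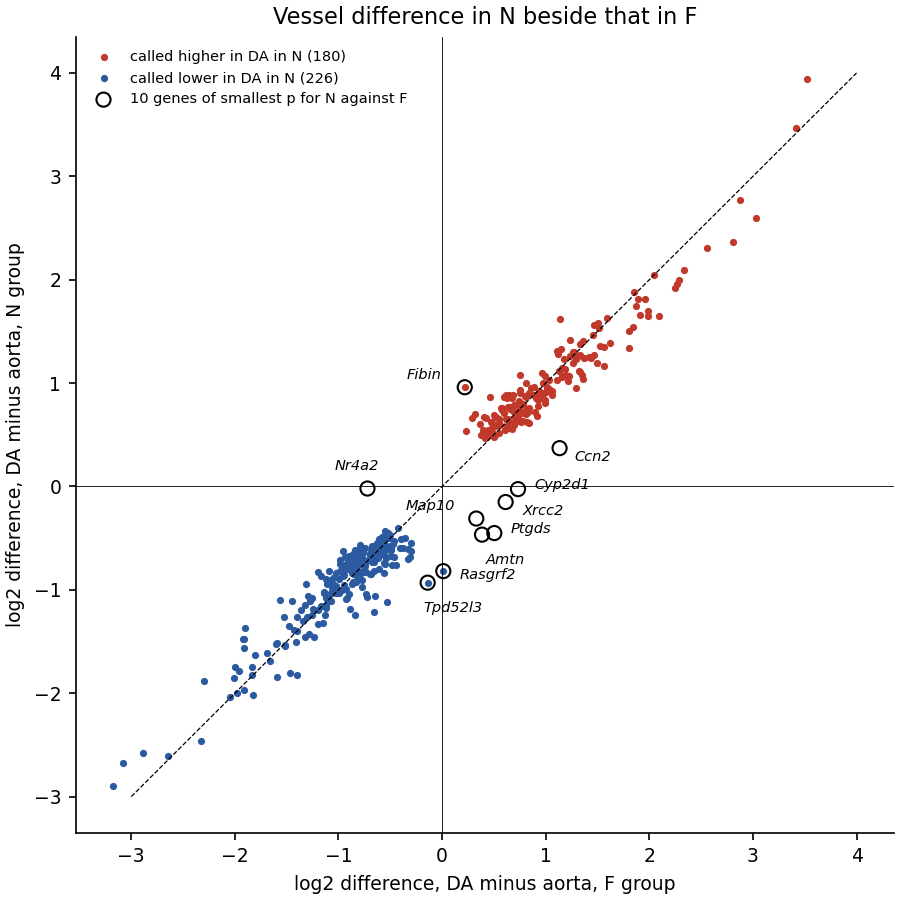
Log2 difference between DA and aorta in the N group (vertical axis) beside that in the F group (horizontal axis) for the 406 genes called in N, red if higher and blue if lower in the DA. Black circles mark the 10 genes with the smallest p for the change between N and F, 3 of them called in N, and the dashed line marks equal values.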

How the data were processed

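The values used were the deposited log2 signals of 26468 probe sets on 12 Affymetrix Rat Gene 1.0 ST arrays, 3 per group, already summarised and normalized by the authors. The sources used here do not name their method. Array medians ranged from 5.63 to 5.76, and the values were used as they were. The lys spike itself ranged from 3.41 to 6.17. In N it stood at 5.78, 4.78 and 3.53 on DA arrays 1 to 3 and at 5.18, 4.47 and 3.47 on aorta arrays 1 to 3. Of the 11899 probe sets, 3064 lay below it on DA N array 1 and 1980 on aorta N array 1. The number of arrays limits the precision, and no depth or detection value comes with the table.

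Gene symbols came from the platform table and were updated through RefSeq. Of the probe sets, 15307 had 1 symbol, 323 several and 10838 none. The 18690 with a mean at or above that of lys entered limma 3.58.1 (R 4.3.3) with 4 group means over all 12 arrays, which share 1 estimate of the spread. A gene was represented by its brightest probe set and called if its p, adjusted by Benjamini-Hochberg over the 18690, was under 0.05, and 2-fold calls were counted apart. The change of the vessel difference between F and N was tested in the same fit.

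For the block, replicate numbers were taken to pair the arrays. In N the deviations of arrays from their group means correlated at 0.80, 0.28 and 0.74 for the same number and at -0.74 to 0.10 for different numbers. This was across probe sets, which are not independent. Deviations sum to 0 within a group, so the 2 ranges are not independent either. The lys spike also fell from replicate 1 to 3 in every group, and what the replicate numbers share was not tested. Their meaning is not stated. The block is an alternative, since the study's methods used an unpaired test, although DA and aortic pools may share litters.

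The genes named were the 15 largest rises and the 15 largest falls among called genes with a named probe set. To these came up to 6 called members and the key members of each of 42 lists. The 10 genes with the smallest p for the change between F and N were named as well. The genes, lists and tests were chosen with earlier results of these data known. Counts of called list members are therefore descriptions and not tests of the lists. List members with no named probe set were not analysed here. The fit was first tested on simulated data. Alternatives covered the block, the arrays fitted, normalization, the filter, the intensity trend, several probe sets per gene, the methods' t-test and arrays left out.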

Additional observations from a re-analysis of the deposited data

How the results depend on the processing

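No gene called in N changed sign under any alternative run, and the change between F and N gave 0 calls in all of them. The signs could hardly have changed. The vessels did not overlap for any of the 406 genes, so leaving out arrays could not reverse a difference. The block, the filters and the intensity trend do not alter the difference itself. Genes with an unadjusted p under 0.05 for that change numbered 84, and 396 with the replicate block, 171 with no filter, 33 with a filter on every array, 64 to 152 with single arrays left out, and 212, 45 and 58 without replicate 1, 2 and 3. The counts of genes called higher and lower in the DA, 180 and 226, became 398 and 517 with the replicate block, 103 and 121 with only the N arrays, and 451 and 570 with only the N arrays and the replicate block. All 406 genes remained called with the block, and 221 with only the N arrays. The methods' t-test with Benjamini-Hochberg adjustment called 10 higher and 18 lower, 9 and 10 of them at least 2-fold. The methods themselves set no such adjustment. With their own cutoffs, an unadjusted p under 0.05 and at least 2-fold, both counts stayed within 1.5 times of the main 70 and 77. A filter on every array left 62 genes at least 2-fold higher, against 70, and 38 at least 2-fold lower, against 77. The loss was thus larger among genes lower in the DA. This filter tested 310 of the 406 genes, all of which stayed called, and the others were below lys on at least 1 array. When single arrays were left out, genes called higher ranged from 107 to 177 and lower from 133 to 230, and at least 2-fold from 61 to 75 and from 70 to 86. Leaving out both vessels and stages of a replicate number, an alternative chosen after the data were seen, gave 105 and 145 without replicate 1, 20 and 26 without replicate 2, and 102 and 100 without replicate 3, and 20 to 74 and 26 to 73 at least 2-fold. The cause was not tested. Of the 406 genes, 46 remained called without replicate 2. Quantile normalization, median centring, no filter, a filter on the N arrays, an intensity trend and the mean of probe sets kept the counts of genes called in N within 1.5 times. Signals near lys limit the smallest differences that can be read. For several other named genes, lys was put in place of signals of the dimmer vessel in N below it on the same array. Log2 differences were then at least 1.76 for Dpp4, 1.58 for Sntg2, 1.31 for Gata4 and 0.72 for Fibin, higher in the DA. They were at least 1.17 for Hoxb8, 1.11 for Gbp5, 1.01 for Nr3c2 and 0.46 for Rasgrf2, higher in the aorta. Of the genes chosen by the naming rule, 17 were called with the block and not without it, and 0 lost their call.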
